A study of Homo sapiens with 12 samples.

Results

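Clusters of RNA bound by the QKI protein that lie in the 3′ untranslated regions (3′ UTRs) of human genes are described here. A cluster entered when it was called in a library of endogenous QKI, lay outside the mitochondrial genome, and had more of its bases annotated as 3′ UTR than as any other class of transcript region. By this rule 19566 clusters of endogenous library 1 and 12288 of library 2 were 3′ UTR clusters, or 31854 of 616191 in all, in 7625 named genes. Clusters of tagged QKI entered where they overlapped one of these on the same strand, which gave 6459 and 5924 clusters for the wild type protein and 4285 and 3629 for the mutant.

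The libraries were made by eCLIP, in which protein and RNA are crosslinked by ultraviolet light, the protein is immunoprecipitated, and the RNA bound to it is sequenced together with a size-matched input. Libraries of 3 groups were compared, each with 2 immunoprecipitation libraries. The wild type group came from cells given 10 µg of a plasmid that encodes myc-QKI-5, the nuclear isoform with a myc tag, and cultured for 72 hours, and the mutant group from cells given myc-QKI-5 with the substitutions K120A and R124A, both pulled down with anti-MYC antibody. The endogenous group came from unmodified cells pulled down with anti-QKI antibody, so that antibody and transfection cannot be told apart from the group when tagged and endogenous protein are compared. The transfected cells were not stated to lack their own QKI. The labels do not say whether libraries of one group were made from separate cultures, and p-values therefore measure only the spread between these libraries.

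QKI binds single-stranded RNA through a KH domain with flanking QUA sequences and recognises a short element of the form ACUAA with a UAA element nearby. It is best known for regulating alternative splicing in the nucleus and, in the 3′ UTRs of mature messages, for controlling RNA stability, transport and translation, above all in the myelinating glia. 3′ UTRs hold most of the sites by which proteins and microRNAs act on a finished mRNA.

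The labels and protocols name HEK293xT or HEK293T cells, an established human embryonic kidney line, while the series' design note speaks of cardiomyocyte differentiation of embryonic stem cells. Of markers with a cluster of any class in the endogenous libraries there were 4 of 7 for the HEK293 line, 3 of 12 for embryonic stem cells, 4 of 13 for cardiomyocytes and 2 of 9 for other cell types. 3′ UTR clusters were found for INA and PAX2 of the HEK293 line list and for LIN28B and DNMT3B of the stem cell list. None was found for the cardiomyocyte list. Markers with no cluster of any class included POU5F1, NANOG and SOX2 of the stem cell list and LHX1, PAX8 and GATA3 of the HEK293 list. The highest counts of any class were 151 for LIN28B, 95 for RYR2 of the cardiomyocyte list and 10 for NEFM of the HEK293 list. These lists do not settle the cell type. Read depth was not given. Listed clusters numbered 384347 and 231844 in the endogenous libraries, 226962 and 273269 in wild type, and 231814 and 272728 in the mutant. Clusters of tagged QKI counted as annotated nuclear clusters only where they overlapped a nuclear endogenous cluster. By this count there were between 45550 and 384230 annotated nuclear clusters per library. Per-library lists of tagged protein hold only clusters above input, so a site without a cluster there was either not called or not above input.

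Most 3′ UTR clusters of endogenous QKI were weak. The median log2 fold of immunoprecipitation over input was -0.16 in endogenous library 1 and 0.30 in library 2, where clusters of all other classes had medians of 0.26 and 1.15. Above input were 41.2% of 3′ UTR clusters in library 1 and 60.4% in library 2, against 60.6% and 87.0% of the other clusters. Coding exon clusters lay lower still, with medians of -1.16 and -0.44, and clusters in introns far from splice sites lay at 0.26 and 1.15. Where the 3′ UTR clusters of both endogenous libraries were merged they formed 23848 loci, of which 5982 held clusters of both libraries.

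Enriched clusters are those whose log2 fold and −log10 p, both as the authors gave them, were each 3 or more. In endogenous QKI 653 3′ UTR clusters (3.34%) passed in library 1 and 481 (3.91%) in library 2, where 4.21% and 5.38% of all annotated nuclear clusters did. In tagged wild type 310 (4.80%) and 275 (4.64%) passed, beside 4.99% and 4.95% of all. In the mutant 10 (0.233%) and 5 (0.138%) passed, beside 0.123% and 0.452% of all. Both wild type libraries thus stood far above both mutant libraries, while the share of 3′ UTR clusters that passed was close to or below that of all clusters in every library except mutant library 1. Among clusters above input alone, as the tagged lists hold them, the endogenous order turned, with 8.10% and 6.48% of 3′ UTR clusters enriched against 7.03% and 6.27% of clusters of other classes. The wild type mean was 292.5 ± 24.7 enriched clusters (SD, n = 2) and the mutant mean 7.5 ± 3.54, a ratio of 39.0. The ratio was 58.5 without mutant library 1, 29.25 without mutant library 2 and 11.4 with a log2 fold threshold of 2, while at a threshold of 4 there were 127 and 105 clusters in wild type against 1 and 0 in the mutant. The exact two-sided permutation test gave p = 0.333, the smallest value that 2 libraries against 2 can give, and this holds for every such test below.

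Enriched 3′ UTR clusters of a library recurred in its partner library in the endogenous and wild type groups. In endogenous QKI 64.8% of those of library 1 and 76.1% of those of library 2 overlapped an enriched cluster of the other library. Enriched clusters of other classes did so in 67.0% and 77.4% of cases. In wild type these shares were 52.6% and 58.5%, beside 58.8% and 56.1% of other classes. In both groups the 3′ UTR shares were thus near those of other classes. In the mutant 1 of 10 and 1 of 5 recurred, beside 50% and 9.79% of other classes, and the 3′ UTR ones were both in TTF2. The clusters nearest the fold threshold lay at 3.012 and 2.994 in endogenous library 1 and at 3.021 and 2.997 in wild type library 1.

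The authors' list of reproducible peaks, made from the pair of libraries of a group, held 522 3′ UTR peaks of 12409 for endogenous QKI, 244 of 3671 for wild type and 2 of 55 for the mutant. The endogenous peaks had a median fold for the pair of 4.06 on the log2 scale and merged into 380 loci in 307 genes, 349 of them lying wholly within 3′ UTRs and with a median width of 122 bases. On the plus strand there were 195 loci and on the minus strand 185. Values of single peaks below are the log2 fold of the cluster with the highest −log10 p among those of each library that overlap the peak (the higher fold where these tie), with positions on build hg19.

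The strongest endogenous peak lay in the 3′ UTR of LRRC3DN (chr21:45880717-45880810, plus strand), with log2 folds of 10.63 and 10.65 in endogenous libraries 1 and 2, 7.53 and 9.28 in wild type, and 1.84 in mutant library 2, with no cluster in mutant library 1. The next lay in TTF2, which encodes a transcription termination factor (chr1:117645384-117645404, plus strand), with 10.58 and 8.85 in endogenous, 7.23 and 8.46 in wild type and 3.55 and 3.56 in the mutant. HNRNPK, an abundant KH-domain RNA-binding protein, followed (chr9:86584842-86584883, minus strand) with 7.45 and 8.54 in endogenous, 7.02 and 5.77 in wild type and 4.46 in mutant library 1 alone. In these 3 genes every wild type value was above every mutant value, and TTF2 was the only gene enriched in both mutant libraries.

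FHL1, a LIM-domain protein of striated muscle and the cytoskeleton, had a peak at chrX:135292743-135292754 (plus strand) with 9.11 and 6.79 in endogenous, 6.93 and 7.50 in wild type and 0.43 in mutant library 2. NAA15, a subunit of an amino-terminal acetyltransferase, had 6.23 and 7.47 in endogenous and 6.87 and 7.58 in wild type. At NAA15, FHL1 and TNKS2, a poly-ADP-ribose polymerase with 8.22 and 6.75 in endogenous and 5.75 and 7.69 in wild type, the wild type and endogenous values overlapped. The strongest wild type peaks, ordered by their fold for the pair, lay in the same genes: LRRC3DN, TTF2, HNRNPK, FHL1, NAA15 and TNKS2.

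The other strong endogenous peaks had lower values in tagged wild type; the peaks were chosen for their endogenous fold, which favours this order. BICD2, an adaptor between cargo and the dynein motor, had 7.71 and 7.72 in endogenous and 2.11 and 3.14 in wild type. ATPIF1, the inhibitor of the mitochondrial ATP synthase, had 7.46 and 7.52 against 4.37 and 4.31, and TBL1XR1, part of the NCoR corepressor, had 6.70 and 7.17 against 3.86 and 2.95. GNAS, the stimulatory G protein subunit, had 6.75 and 5.86 against 4.01 and 2.86, and G2E3, a ubiquitin ligase, had 5.80 and 7.16 against 4.85 and 5.29. At these 5 peaks both endogenous libraries lay above both wild type libraries, and the only mutant cluster there was one at 0.83 in G2E3. The loci of ATPIF1 and GNAS did not lie wholly within 3′ UTRs, as clusters there reached into another class of region.

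**Figure D1:**
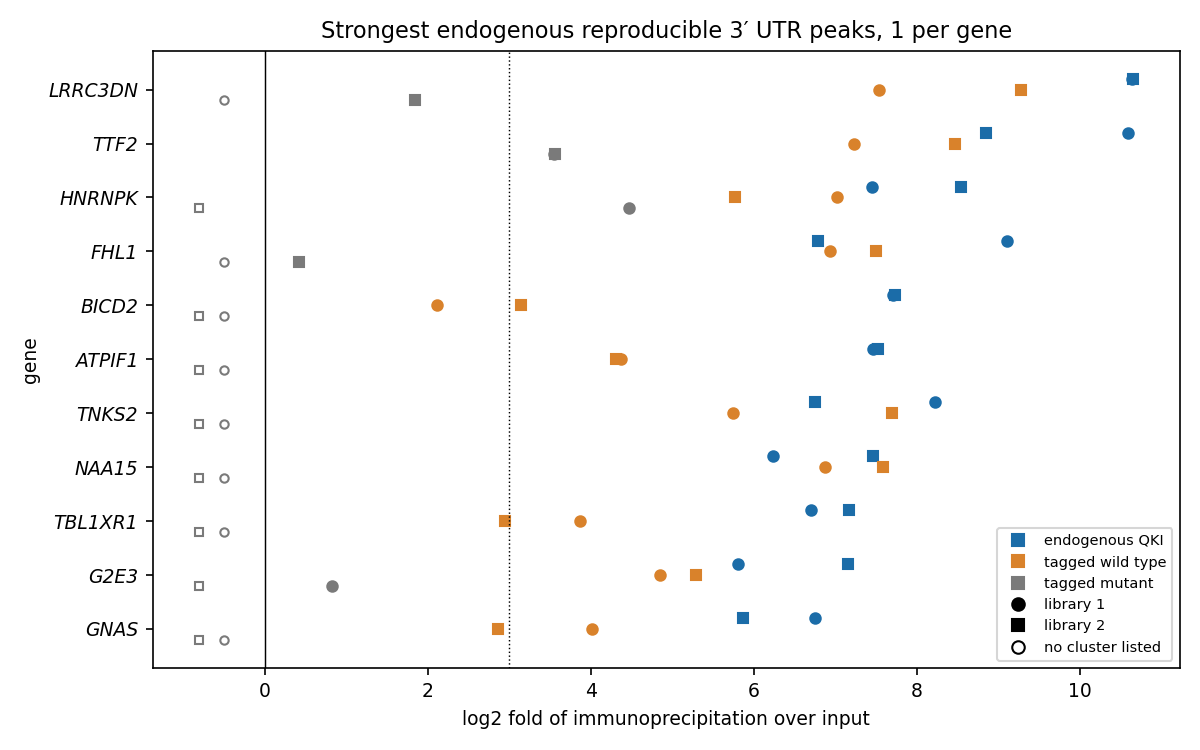
Log2 fold of immunoprecipitation over input (horizontal axis) at 11 of the strongest endogenous reproducible 3′ UTR peaks, 1 per gene (vertical axis), for endogenous QKI (blue), tagged wild type (orange) and tagged mutant (grey); circles are library 1, squares library 2, open symbols left of 0 mark libraries with no cluster, and the dotted line is the fold threshold of 3. The mutant had no cluster in either library at 6 of the 11 peaks, and BICD2 shows the widest gap between endogenous, at 7.71 and 7.72, and wild type, at 2.11 and 3.14.

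Most bound 3′ UTRs held a single endogenous locus. Of the 307 genes with a reproducible peak, 268 had 1 locus, 26 had 2 and 13 had 3 or more, up to 12. FAM208A, a subunit of the HUSH silencing complex, held the most, with 24 peaks in 12 loci over 1780 bases. FHL1 held 16 peaks in 4 loci over 420 bases, BICD2 14 peaks in 8 loci over 1650 bases, and HNRNPK 12 peaks in 3 loci over 541 bases. DVL3, a relay protein of Wnt signalling, held 9 peaks in 5 loci, TTF2 8 peaks in 1 locus, and ERH, a small nuclear protein linked to RNA processing, 6 peaks in 2 loci. HNRNPA2B1, an RNA-binding protein of splicing and RNA transport, held 6 peaks in 1 locus.

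These genes differed in how far tagged wild type covered the same stretch. At the 16 FHL1 peaks wild type had a cluster at 13 in library 1 and 14 in library 2, with medians of 6.31 and 6.50 beside endogenous medians of 7.15 and 6.59. At the 24 FAM208A peaks wild type had a cluster at 10 in each library, reaching 5.51 and 4.99 at the upstream end, while endogenous values ranged from 2.86 to 5.92 in library 1 and from 3.12 to 5.93 in library 2. At the 14 BICD2 peaks wild type had a cluster at 6 in each library, the highest at 2.22 and 3.14, where the lowest endogenous values were 4.13 and 3.75. BICD2 and HNRNPA2B1 had no wild type reproducible peak in their 3′ UTRs, while FHL1 had 7, HNRNPK and ERH had 4 each and FAM208A had 3. The mutant was listed at 4 of the 14 BICD2 peaks in library 1 and 2 in library 2, at no value above 1.43.

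**Figure D2:**
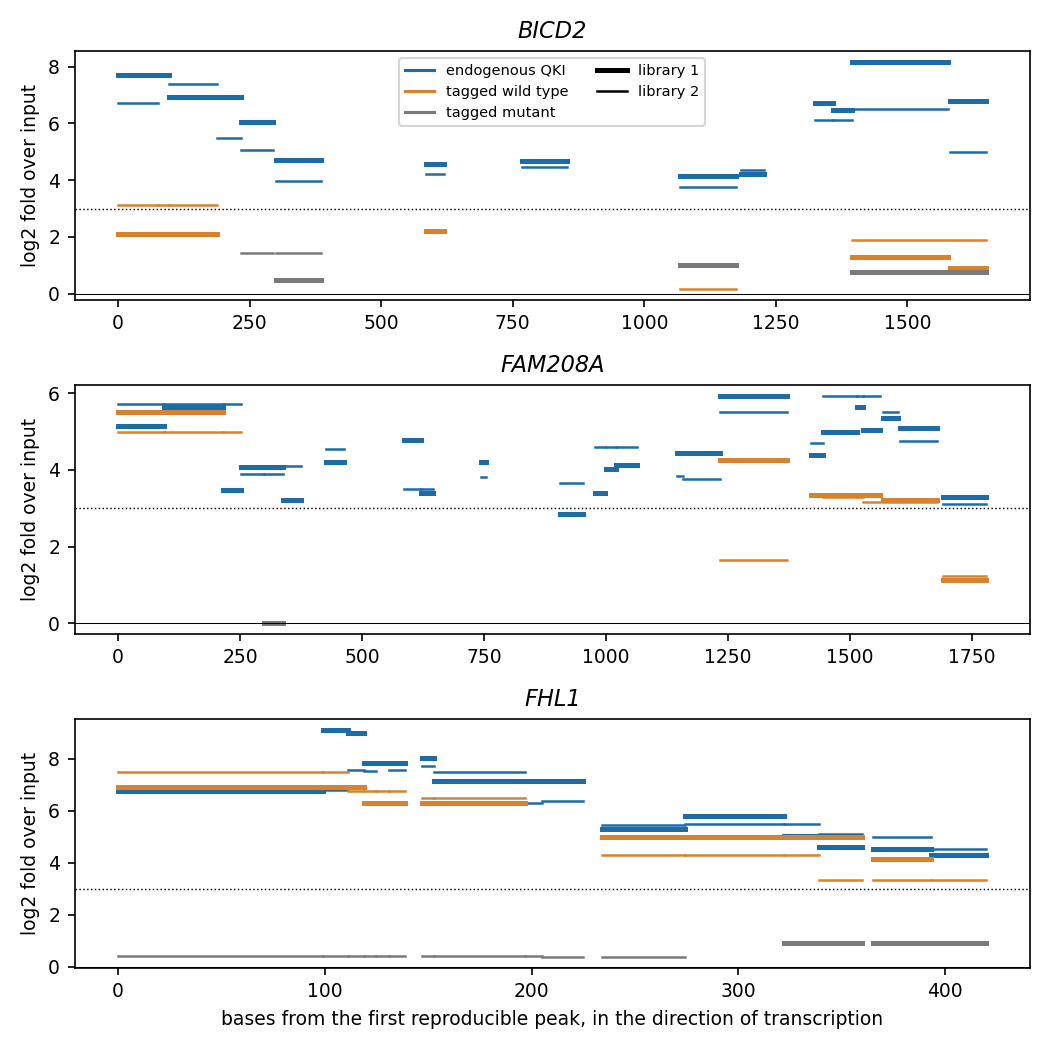
Log2 fold over input (vertical axis) at each endogenous reproducible 3′ UTR peak of BICD2, FAM208A and FHL1, drawn as a bar over the peak's width at its distance in bases from the first peak in the direction of transcription (horizontal axis); blue is endogenous QKI, orange tagged wild type and grey tagged mutant, thick bars are library 1 and thin bars library 2, and the dotted line is the fold threshold of 3. Wild type runs close to endogenous along FHL1, is listed at 10 of 24 peaks of FAM208A, and stays at or below 3.14 along BICD2.

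At the 380 endogenous loci, which were chosen without the tagged libraries, tagged wild type was listed at 337 and 325 (88.7% and 85.5%). The mutant was listed at 60 and 43 (15.8% and 11.3%). Endogenous loci of other classes were listed in 86.1% and 83.0% of cases in wild type and in 10.2% and 10.5% in the mutant. Enriched wild type clusters lay at 140 loci in library 1 (36.8%, exact Clopper-Pearson 95% interval 32.0 to 41.9%) and at 131 in library 2 (34.5%, 29.7 to 39.5%), beside 26.3% and 23.8% of the endogenous loci of all classes. In the mutant they lay at 2 and 1 loci, or 0.526% and 0.263%, beside 0.118% and 0.167% of all. Enriched in both wild type libraries were 100 loci, in neither 209, and 30 loci had no wild type cluster at all. The mutant had no cluster in either library at 291 loci. For these counts over both libraries no share of other classes is given, so they cannot be read as particular to 3′ UTRs.

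The median log2 fold over the listed loci was 2.76 and 2.83 for wild type and 0.88 and 0.95 for the mutant, with 3.96 and 3.89 in the endogenous libraries on which the loci had been chosen. These medians averaged 2.80 ± 0.05 over the wild type libraries and 0.92 ± 0.05 over the mutant libraries (SD, n = 2), a difference of 1.88 with no overlap between the groups (exact permutation p = 0.333). At endogenous loci of other classes the medians were 2.51 and 2.44 for wild type and 0.83 and 0.84 for the mutant, so the gap was not particular to 3′ UTRs. The medians take in different loci in each library, and over 3′ UTR loci listed in all 4 tagged libraries the difference was 2.32. Setting missing clusters to 0, both wild type libraries were above both mutant libraries at 299 of 380 loci, where 74.4% of the endogenous loci of all classes were; the share of 3′ UTR loci was thus near that of all. A weaker contact with RNA and a smaller amount of tagged protein in the pull-down cannot be told apart from these values.

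**Figure D3:**
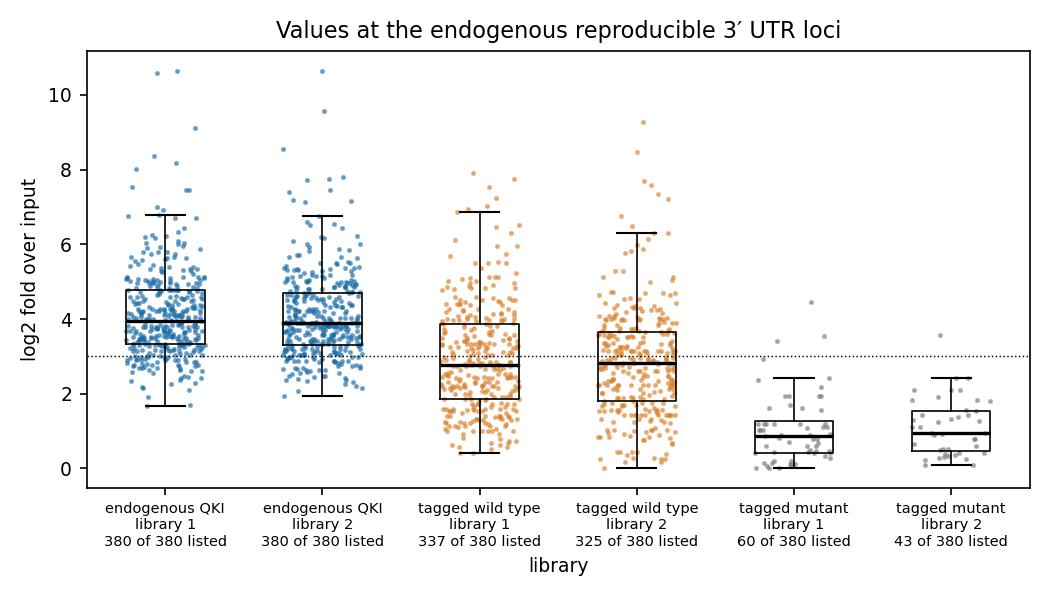
Log2 fold over input (vertical axis) at the 380 endogenous reproducible 3′ UTR loci in each of the 6 libraries (horizontal axis), 1 point per locus with a cluster, boxes from the lower to the upper quartile, thick lines at the median and whiskers to the farthest point within 1.5 box lengths. Wild type medians of 2.76 and 2.83 lie between endogenous medians of 3.96 and 3.89 and mutant medians of 0.88 and 0.95, and the mutant is listed at 60 and 43 loci.

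Endogenous loci in 3′ UTRs were enriched in tagged wild type more often than the 9815 endogenous loci of other classes. Outside 3′ UTRs 25.9% were enriched in wild type library 1 and 23.4% in library 2, which left the 3′ UTR loci 10.9 and 11.1 percentage points higher. The endogenous medians did not run the same way, at 3.96 and 3.89 for 3′ UTR loci and 4.04 and 4.09 for the others. Among loci with a highest fold for the endogenous pair of 3 to 4, wild type enrichment was 25.3% and 26.3% in the 2 libraries for 198 3′ UTR loci, against 12.8% and 11.9% for 4546 others. At folds of 4 to 5 it was 36.4% and 29.9% against 26.9% and 22.9%, and at 5 and above 68.0% and 62.7% against 61.4% and 57.6%. The 3′ UTR value was thus the higher in both libraries in each of the 3 ranges of endogenous fold. With 2 libraries an exact sign-flip test cannot go below p = 0.5, so this difference does not pass a threshold of 0.05. In the mutant the gap was 0.424 and 0.1001 points (exact permutation p = 0.333 against wild type). With 2 and 1 of 380 3′ UTR loci and 10 and 16 of 9815 others enriched there, a gap in points could only be small. The comparison therefore cannot tell whether the 3′ UTR excess differs between wild type and mutant.

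**Figure D4:**
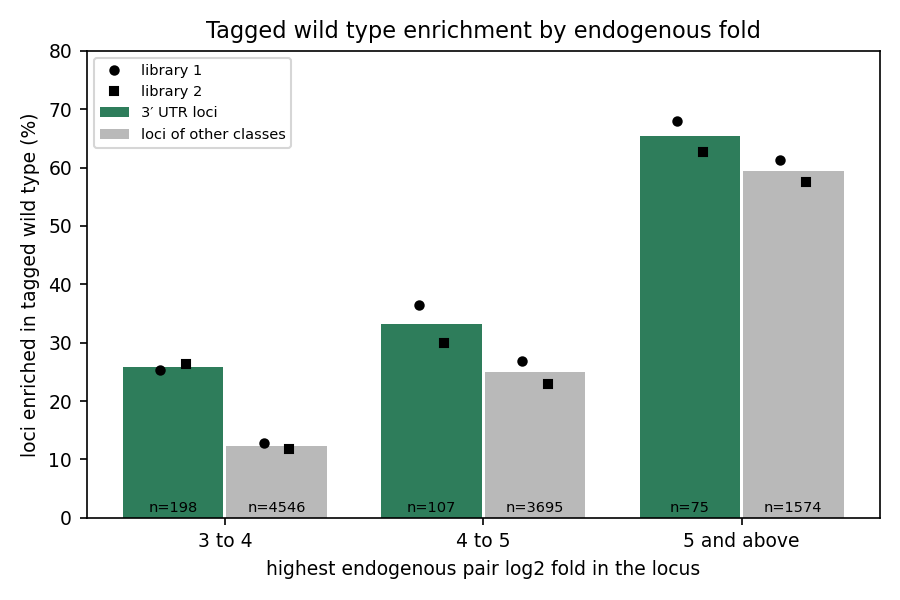
Percent of endogenous reproducible loci with an enriched tagged wild type cluster (vertical axis) by the highest endogenous fold for the pair in the locus, on the log2 scale (horizontal axis), for 3′ UTR loci (green) and loci of other classes (grey). Bars are means of 2 wild type libraries, circles library 1, squares library 2 and n the number of loci; the 3′ UTR bars stand at 25.8, 33.2 and 65.3% and the others at 12.3, 24.9 and 59.5%.

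Reproducible 3′ UTR peaks overlapped between the groups in part. Of the 244 wild type peaks, 149 (61.1%, exact Clopper-Pearson 95% interval 54.6 to 67.2%) shared at least 1 base with an endogenous reproducible peak, against 70.7% of wild type peaks of other classes. Wild type peaks entered only where they overlapped an endogenous 3′ UTR cluster, so peaks without one could not count against this share. The endogenous medians below rest on the same rule. Of the 522 endogenous peaks, 203 (38.9%, 34.7 to 43.2%) shared a base with a wild type peak, against 23.4% in other classes. At the 95 wild type peaks without an endogenous partner, in 89 genes, the median log2 folds were 3.54 and 3.39 for tagged wild type and 2.29 and 2.15 for endogenous QKI, whose libraries had an enriched cluster at 16 and 3 of them. Choosing peaks that were reproducible in wild type and not in endogenous QKI favours this order, also at DSTN and FAR1 below. These peaks were led by DSTN, an actin-depolymerising protein, with 4.68 and 5.88 in wild type against 3.41 and 2.99 at a peak that starts directly after an endogenous reproducible DSTN peak, and FAR1, an enzyme of fatty alcohol synthesis, with 3.69 and 5.05 against 2.00 and 2.15. Endogenous loci without any wild type cluster were led by MICAL2, an actin-oxidising enzyme, at 5.58 and 5.02, and OPA1, a mitochondrial fusion protein, at 4.23 and 5.52.

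Single regions were compared between wild type and mutant with limma over the 5481 merged regions that had a cluster in all 4 tagged libraries, 381 of them in 3′ UTRs. Of these, 5 were higher in wild type at an adjusted p of at most 0.05 and none was lower, beside 0.657% of all regions higher, 0.0182% lower and 0.675% either way. At an unadjusted p under 0.05 limma gave 43 higher and 10 lower. No such count was made over all regions, so these counts cannot be read as particular to 3′ UTRs. FHL1 led with 6.93 and 6.76 in wild type and 0.90 and 0.43 in the mutant, a difference of 6.19 ± 0.49 (SE; limma adjusted p = 0.00183). ERH had 5.10 and 4.73 against 0.72 and 0.28, a difference of 4.41 ± 0.49 (limma adjusted p = 0.00927), and TTF2 7.23 and 8.46 against 3.55 and 3.56, a difference of 4.29 ± 0.56 (limma adjusted p = 0.0173). In each of these genes both wild type libraries stood above both mutant libraries.

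The remaining regions that rose were YWHAZ, an adaptor that binds phosphorylated proteins, with 3.63 and 3.30 against 0.02 and 0.23 (limma adjusted p = 0.0271), and E2F5, a repressive cell cycle transcription factor, with 3.62 and 3.53 against 0.19 and 0.69 (limma adjusted p = 0.0378). All 5 calls ended when mutant library 1 or mutant library 2 was left out, leaving 0 calls and limma adjusted p of up to 0.190, with the lone mutant library taken to vary like the wild type pair. Those of YWHAZ and E2F5 also ended without wild type library 1 and that of E2F5 without wild type library 2. Both also ended with missing clusters set to 0 (limma adjusted p = 0.0828 for YWHAZ and 0.105 for E2F5), and all differences kept their sign. The median difference over the 381 regions was 0.01, against -0.26 over all 5481 regions. A region that lacked a cluster in any of the 4 tagged libraries was not tested, so that BICD2, NAA15 and TNKS2, among others, gave no value here.

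Enriched mutant clusters in 3′ UTRs were examined singly. TTF2 was enriched in both mutant libraries. HNRNPK passed in library 1 at 4.46 and was not listed in library 2. Further enriched clusters were in SLC38A2, RFC5, ACTR2, HMGCS1, PFDN6, HEY1 and RC3H2 in mutant library 1 and in DSG2, TRMT2A, TOP3B and PPP6R2 in library 2. At these 11 sites endogenous QKI lay between -1.35 and 1.37 where it was listed and wild type reached at most 1.77, in SLC38A2, an amino acid transporter that had 3.39 and 2.15 in the mutant. ACTR2, a subunit of the actin-nucleating Arp complex, had 3.89 in mutant library 1 with no cluster in library 2, beside 1.00 and 0.74 in wild type.

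Tagged wild type and endogenous QKI were compared with limma over 29835 merged regions with a cluster above 0 in all 4 libraries, 1685 of them in 3′ UTRs. In wild type 64 3′ UTR regions in 61 genes were lower and 11 were higher. Of all regions 7.6% were lower, 0.543% higher and 8.14% either way. The share of lower 3′ UTR regions, 3.80%, was under the share of all, and that of higher regions, 0.653%, was close to it. With each library centred on its median the split turned to 13 lower and 30 higher, beside 405 lower and 407 higher of all 29835 regions. With endogenous clusters kept at any fold it turned to 55 lower and 57 higher of 2315 regions, beside 1849 lower and 267 higher of all 32651. The median difference was -0.16 over 3′ UTR regions and -0.61 over all, and 0.52 and 0.07 after centring. With endogenous clusters kept at any fold it turned to 0.24 over 3′ UTR regions, against -0.48 over all. The 75 called regions numbered 47 without wild type library 2, 22 without endogenous library 1 and 31 without endogenous library 2.

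BICD2 was lower at both ends of its bound stretch, with 1.29 and 1.90 in wild type against 8.16 and 6.51 in endogenous at the downstream end (difference -5.74 ± 0.71, SE, limma adjusted p = 0.00258) and 2.11 and 3.14 against 6.93 and 7.40 at the upstream end (-4.54 ± 0.67, limma adjusted p = 0.00511). DCTN3, a subunit of dynactin, the partner complex of dynein, had 1.00 and 0.18 against 5.31 and 4.56, a difference of -4.35. ERCC1, a DNA repair nuclease subunit, had 1.58 and 0.25 against 5.21 and 4.97, a difference of -4.18. HNRNPA2B1 had 1.76 and 2.04 against 5.87 and 5.67, a difference of -3.87, and CLTC, the clathrin heavy chain, 0.41 and 2.08 against 4.83 and 5.40, a difference of -3.86. All these regions, chosen as the largest, stayed below endogenous and past limma's threshold in each alternative that tested them, centring included.

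Among the regions higher in wild type, MAP2K1, a kinase of the ERK pathway, was the one with strong binding in both groups, at 5.95 and 7.36 in wild type against 4.26 and 3.75 in endogenous (difference 2.65 ± 0.69, SE, limma adjusted p = 0.0296). RPS20, a protein of the small ribosomal subunit, had 4.90 and 4.27 against 1.58 and 2.56, and HECTD3, a ubiquitin ligase, 3.80 and 3.25 against 1.06 and 0.56. ZZZ3, a histone-reading subunit of an acetyltransferase complex, had 2.91 and 3.69 against 0.26 and 0.05, the largest rise at 3.15. MELK, a mitotic kinase, and THAP2, a zinc-finger protein, shared wild type values of 2.997 and 3.14. No library reached a −log10 p of 3 in either region, so neither was tested under a filter at that value. Each of these 6 calls ended in 2 to 4 alternatives, with limma adjusted p of up to 0.179, and none changed sign.

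**Figure D5:**
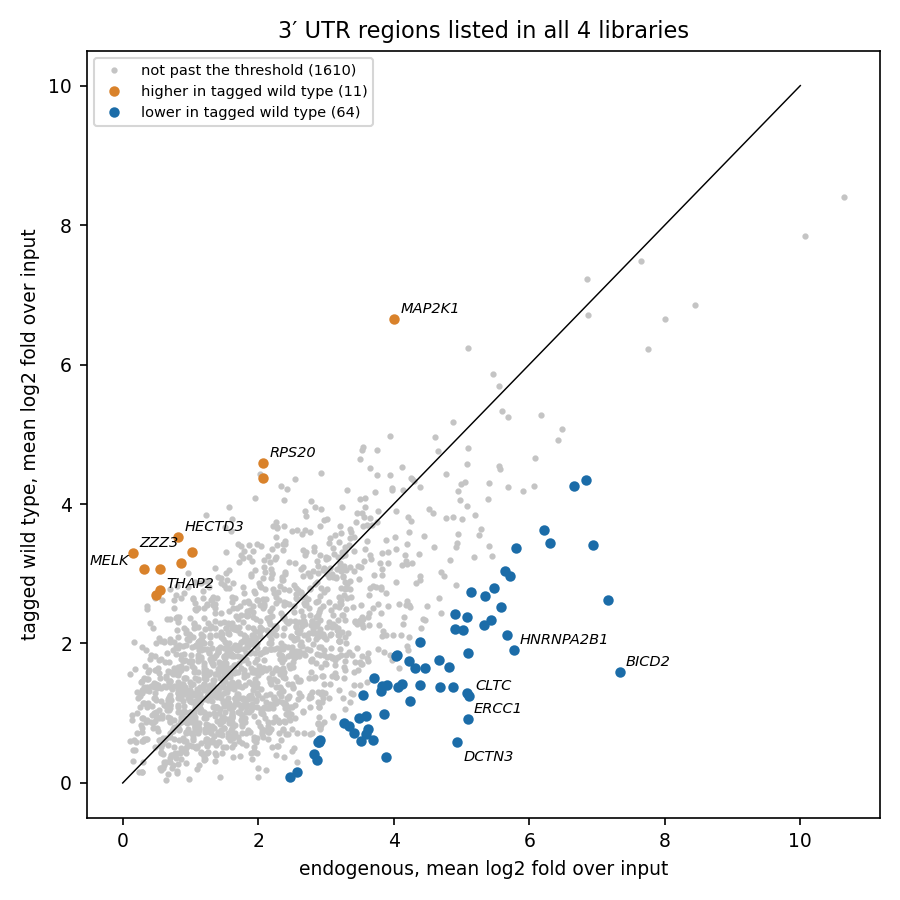
Mean log2 fold over input of 2 tagged wild type libraries (vertical axis) against that of 2 endogenous libraries (horizontal axis) for 1685 3′ UTR regions listed above input in all 4; grey points did not pass limma's adjusted p of 0.05, blue points (64) were lower and orange points (11) higher in wild type, and the line marks equal values. BICD2 lies farthest below the line and MAP2K1 is the orange point with the highest values. With each library centred on its median the counts turn to 13 lower and 30 higher, beside 405 and 407 of all 29835 regions. With endogenous clusters at any fold they turn to 55 and 57, beside 1849 and 267 of all 32651.

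Gene groups are described by the number of members with an endogenous reproducible 3′ UTR peak. Over all 7625 genes with a 3′ UTR cluster, 4.03% carried one. Of 32 genes for hnRNP and KH-domain RNA-binding proteins with a 3′ UTR cluster, 6 carried one: HNRNPK, HNRNPA2B1, HNRNPA1, PCBP2, HNRNPD and IGF2BP2. HNRNPA1, a splicing regulator and reported QKI target, had 5.02 and 4.60 in endogenous and 1.41 and 1.91 in wild type, HNRNPD, an AU-rich element binding protein of mRNA decay, had 3.82 and 4.96 against 1.57 and 2.48, and PCBP2, a poly-C-binding protein, had 4.56 and 3.56 against 1.41 and 1.44. At these strongest endogenous peaks, and at those of HNRNPA2B1 and HNRNPK, both endogenous libraries lay above both wild type libraries, an order that choosing peaks by their endogenous fold favours. HNRNPK, at 7.45 and 8.54 against 7.02 and 5.77, was enriched in both wild type libraries. At the strongest wild type peak of HNRNPK (chr9:86584476-86584570, minus strand) the groups overlapped, with 7.53 and 7.76 in endogenous and 7.75 and 7.20 in wild type. Another PCBP2 locus (chr12:53869103-53869199, plus strand) had 3.56 and 2.37 in endogenous and 2.25 and 3.23 in wild type, which overlap. HNRNPA1 had a wild type reproducible peak elsewhere in its 3′ UTR (chr12:54679478-54679493, plus strand) at 3.32 and 3.39, beside 3.05 in endogenous library 1 and no cluster in library 2. In all, 4 genes of the list had a wild type reproducible 3′ UTR peak. IGF2BP2, an mRNA-stabilising KH protein, had 3.60 and 3.11 against 3.24 and 2.94.

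Of 7 known QKI targets with a 3′ UTR cluster, 3 carried a peak: QKI itself, HNRNPA1 and SIRT2, a deacetylase of myelin-forming cells. QKI had 4 loci, of which the strongest had 5.67 and 4.52 in endogenous and 7.92 and 4.55 in wild type, while the other 3 had no wild type cluster. SIRT2 had 3.61 and 3.34 in endogenous and 3.17 and 1.70 in wild type. Cleavage and polyadenylation genes had 3 of 13: PAPOLA, the poly(A) polymerase, with 5.35 and 5.18 against 3.10 and 4.01, and the cleavage factor subunits CPSF2, with 3.34 and 3.53 against 2.47 and 3.96, and CPSF7, with 3.34 and 3.58 against 5.50 and 2.25. In PAPOLA the groups did not overlap and in the other 2 they did.

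Of 33 cytoskeleton and LIM-domain genes 2 (6.06%) carried a peak, FHL1, with 16 of the list's 18 peaks, and the tropomyosin gene TPM1. TPM1 had 6.05 and 4.15 in endogenous and 1.11 and 2.61 in wild type. Of 32 genes of mRNA decay and microRNA silencing 2 (6.25%) did, CNOT6, a deadenylase, and ELAVL1, an mRNA-stabilising protein. ELAVL1 had 2.91 and 3.44 in endogenous and 2.84 and 3.64 in wild type. Of 38 cytosolic ribosomal protein genes RPL31 alone (2.63%) did, at 4.16 and 3.37 against 4.08 and 3.73. None of the 22 splicing regulators of the SR, RBFOX, CELF, MBNL and PTB families and none of the 29 cell cycle genes did. Beside 4.03% of all genes, these lists are too small for such counts, the zeros included, to be read as a difference. An enriched 3′ UTR locus in both endogenous libraries was found for 6 of the 32 hnRNP and KH-domain genes, 4 of the 33 cytoskeleton and LIM-domain genes and 3 of the 13 cleavage and polyadenylation genes, beside 3.04% of all genes, and in both wild type libraries for 1 of each, beside 1.72%. In the mutant it was found for no member of any of the 8 lists, beside 0.0131% of all genes, and the lists' counts were not tested.

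Genes bound in the 3′ UTR were often bound in introns as well. Of the 307 genes with an endogenous reproducible 3′ UTR peak, 151 (49.2%) also had an endogenous reproducible intron peak, against 2265 of the 7318 other genes with a 3′ UTR cluster (31.0%), a difference that was not tested. Clusters that reached into another class of region, 618 and 392 in the endogenous libraries, were enriched in 5.83% and 6.12% of cases, against 3.26% and 3.84% of clusters wholly within 3′ UTRs.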

How the data were processed

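Clusters of 6 immunoprecipitation libraries were used; the 6 inputs enter only through the deposited folds. Per the submitters' processing notes, the tools were STAR, SAMtools, cutadapt and UMI-tools and the build hg19; the peak caller, the tools' versions and the read depth were not given in the sources used here. The authors' log2 fold over input and the authors' −log10 p, which stops at 400, are deposited for each cluster. Tagged lists hold only log2 folds above 0. The endogenous files' own annotation gave region classes and gene names.

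Overlap meant at least 1 base on the same strand. For single regions, clusters were merged (778449 regions over the 4 tagged libraries, 627646 over wild type and endogenous), each library was represented by its cluster of highest −log10 p, endogenous clusters were held above 0, and regions listed in all 4 libraries were tested with limma 3.58.1 (lmFit, eBayes) in R 4.3.3, with Benjamini-Hochberg adjustment over all regions of all classes. Exact permutation tests (two-sided) compared library means. Intervals cover counting error only. On simulated wild type against mutant data over 5481 regions, limma called 0, 20, 66 and 90% of regions shifted by log2 values of 1, 2, 3 and 4, and 3 of 5281 unshifted regions. On simulated wild type against endogenous data over 29835 regions, it called 0, 4, 18 and 66%, and 4 of 29635.

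Genes named were those of the 12 strongest endogenous and 6 strongest wild type reproducible peaks (1 per gene), the 8 with most endogenous peaks, the largest limma calls (up to 8 per direction against the mutant, 6 against endogenous), the mutant's enriched clusters, and list members with a peak; DSTN, FAR1, MICAL2 and OPA1, the first of their orderings, were chosen after their values were seen. Genes that this rule names but that are withheld are not reported here. Members, lists and rules were chosen with earlier results of these data known. Alternatives changed the thresholds, the class and overlap rules, missing clusters, centring, filters, the replicate block and the libraries used.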

Additional observations from a re-analysis of the deposited data

How the results depend on the processing

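The 3′ UTR regions that differed between wild type and mutant by limma, 5 of 381, numbered 11 with each library centred on its median, 11 with a −log10 p of at least 3 in 1 library, 12 with 1 fit over all 6 libraries, 12 with missing clusters set to 0, 6 with the replicate block, and 0 to 7 with a library left out, the 0 coming without mutant library 1 and without mutant library 2. The 75 that differed between wild type and endogenous numbered 134 with the replicate block, 43 centred, 117 with the −log10 p filter, 9 with 1 fit over all 6 libraries, and 22 to 65 with a library left out (47 without wild type library 2, 22 without endogenous library 1, 31 without endogenous library 2). Same-numbered libraries did not pair: their deviations correlated at -0.04 for wild type and mutant and 0.01 for wild type and endogenous. The share of 3′ UTR clusters among enriched clusters, divided by their share among clusters above 0, was 0.963 and 0.938 in wild type against 1.15 and 1.03 in endogenous, a difference of -0.139 that reversed to 0.190 with endogenous clusters at any fold. The share of endogenous peaks found in wild type was 33.1% when only peaks with a log2 fold of 4 or more were kept. Over all counts, shares and medians, 54 alternative values kept their direction, stayed within 1.5 times the count or, for overlaps, within the 95% interval, 14 moved and 1 reversed. At the single regions named, 141 alternative values kept the call, 33 ended it and none changed sign. Where a count moved, the cause was not tested. Site sequences and QKI motif content were not analysed here, so the planned motif comparison was not run. With 2 libraries a group and unknown depth, low folds are coarse and small differences between libraries cannot be resolved.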
